A study of Mus musculus with 4 samples.

Results

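The chromosome 13 peaks of H3K36me2, dimethylated lysine 36 of histone H3, comprised 694 of 7699 regions called in cultured mouse bone marrow mesenchymal stem cells (MSCs) given 1 µM melatonin for 24 hours, and 877 of 8361 regions called in untreated MSCs. Members were all regions on chromosome 13 in either list, 1571 in total over both lists. The chromosome, and its 1 Mb windows at 5 to 6, 16 to 17 and 75 to 76 Mb, were picked on their low ratio of melatonin to untreated peaks, so counts and ratios are given here as a description, with no test. Each condition had 1 ChIP library, called against its own input library without antibody, and both came from bone marrow MSCs grown in DMEM with serum. The conditions follow the treatment label of each sample. The design text of the series speaks of old donors, while the sample labels used here name no strain, age, sex or number of mice. All coordinates are GRCm38. Peaks do not report expression, so the cell type label was not checked against marker levels.

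H3K36me2 is written mainly by the NSD methyltransferases, covers broad stretches between genes and inside them, and is known for drawing the DNA methyltransferase DNMT3A to intergenic sequence. MSCs are the stromal cells from which bone, cartilage and fat cells of the marrow derive, and melatonin is a pineal hormone. Mouse chromosome 13 carries Nsd1, a writer of the mark, the prolactin gene family, a large cluster of core histone genes and several wide stretches without protein-coding genes.

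The 250 bases before a transcription start rarely held a peak. On chromosome 13 a melatonin peak overlapped 6 of 1527 annotated starts (0.393%) and an untreated peak overlapped 5 (0.327%), where the shares over all chromosomes were 0.198% and 0.131%. No start on the chromosome had a peak in both libraries. The 11 starts with a peak had a median GC content of 43.2%, against 49.6% for all starts on the chromosome. The stretches of the 3 protein-coding genes among them are given here, together with that of the lncRNA gene Gm35615, which is nearest to a peak of the other library. Each line gives the 250 bases upstream of the start, 5′ to 3′ on the gene's strand, from RefSeq (GRCm38.p6), with CG dinucleotides, the usual target of DNA methylation, in capitals.
Prl3b1: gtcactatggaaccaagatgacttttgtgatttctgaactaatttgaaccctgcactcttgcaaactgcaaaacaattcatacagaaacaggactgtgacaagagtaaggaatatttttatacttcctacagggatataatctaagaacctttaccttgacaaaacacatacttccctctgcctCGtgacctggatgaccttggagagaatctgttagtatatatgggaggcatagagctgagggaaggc
Prl7d1: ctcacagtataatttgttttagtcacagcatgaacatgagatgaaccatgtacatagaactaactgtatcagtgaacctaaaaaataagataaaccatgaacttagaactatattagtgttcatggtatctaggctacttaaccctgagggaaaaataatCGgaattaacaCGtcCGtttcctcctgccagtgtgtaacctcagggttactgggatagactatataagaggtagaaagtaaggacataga
Ripor2: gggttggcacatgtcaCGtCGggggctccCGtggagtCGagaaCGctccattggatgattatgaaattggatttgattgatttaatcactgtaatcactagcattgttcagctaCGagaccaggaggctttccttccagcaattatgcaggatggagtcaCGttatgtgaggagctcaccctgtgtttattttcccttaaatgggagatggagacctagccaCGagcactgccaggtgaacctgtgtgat
Gm35615: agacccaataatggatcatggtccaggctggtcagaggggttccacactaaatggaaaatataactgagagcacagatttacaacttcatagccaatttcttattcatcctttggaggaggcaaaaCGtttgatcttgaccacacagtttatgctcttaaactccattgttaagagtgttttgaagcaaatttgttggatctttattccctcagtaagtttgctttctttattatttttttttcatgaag

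The CG dinucleotide reads the same on both strands, and at least 1 was present in 10 of the 11 stretches, against 92.7% of such stretches on the chromosome and 92.1% over all chromosomes. Prl3b1, which encodes a placental lactogen, had a melatonin peak at chr13:27242210-27243210 over its upstream stretch at chr13:27242180-27242429 on the plus strand, with a fold over input, the authors' ratio of ChIP to input tags in the region, of 5.22 and 1 CG. Prl7d1, a placental member of the prolactin family, had an untreated peak at chr13:27716574-27717574 over chr13:27716737-27716986 on the minus strand, with a fold of 5.45 and 3 CG. A further Prl7d1 start, 1 base away, made up the count. Prolactin genes are tandem copies of each other, so reads there are uncertain in their place. Ripor2, which encodes an inhibitor of the small GTPase RhoA, had an untreated peak at chr13:24581423-24582423 over chr13:24581939-24582188 on the plus strand, with a fold of 4.36 and 8 CG. This start lies inside the gene (chr13:24501524-24733806), which had 5 melatonin and 4 untreated peaks in its body or 2 kb flanks. The Gm35615 stretch, chr13:6289427-6289676 on the minus strand, had a melatonin peak at chr13:6287944-6289646 with a fold of 5.74 and 1 CG, and the nearest untreated peak lay 0.836 kb away. None of these starts lay in the 3 windows.

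Melatonin-treated cells had fewer H3K36me2 peaks on chromosome 13 than untreated cells, and the shortfall was spread unevenly along it. Dividing 694 melatonin by 877 untreated peaks gave 0.791 (exact 95% interval 0.715 to 0.875), the lowest of 20 chromosomes, where all other chromosomes together held 7005 and 7484 peaks, a ratio of 0.936 (0.906 to 0.967). The peaks covered 0.763 Mb with melatonin and 0.978 Mb without, at 13.4 and 13.8 ChIP tags per kb on a scale of 10000000 tags per library. Intervals cover counting error only and treat peaks as independent, although neighbouring peaks clustered. Without molecular identifiers, PCR copies of 1 molecule can count as several reads. In bulk cells, a mark on fewer cells and less mark per cell cannot be told apart.

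The 3 windows were the fullest windows of the chromosome as well as those with its largest deficits. The window at 5 to 6 Mb, which contains Klf6, held 36 peaks with melatonin and 72 without, a ratio of 0.5 (0.325 to 0.756). The window at 16 to 17 Mb, with Inhba and part of Sugct, held 17 and 52, a ratio of 0.327 (0.177 to 0.575). The window at 75 to 76 Mb, around Ell2, held 13 and 41, a ratio of 0.317 (0.156 to 0.604). Ranked by deficit, the untreated minus the melatonin count, among 1807 windows of the genome with a peak, they came 1st, 2nd and 4th, and the chromosome 10 window from 16 Mb, with 33 and 67 peaks, came 3rd. By melatonin peaks alone they ranked 4th, 46th and 103rd, and by untreated peaks alone 1st, 3rd and 8th. Since the windows were picked on a low ratio of melatonin to untreated peaks, lower melatonin ranks were built in, and nothing is read from them.

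**Figure D1:**
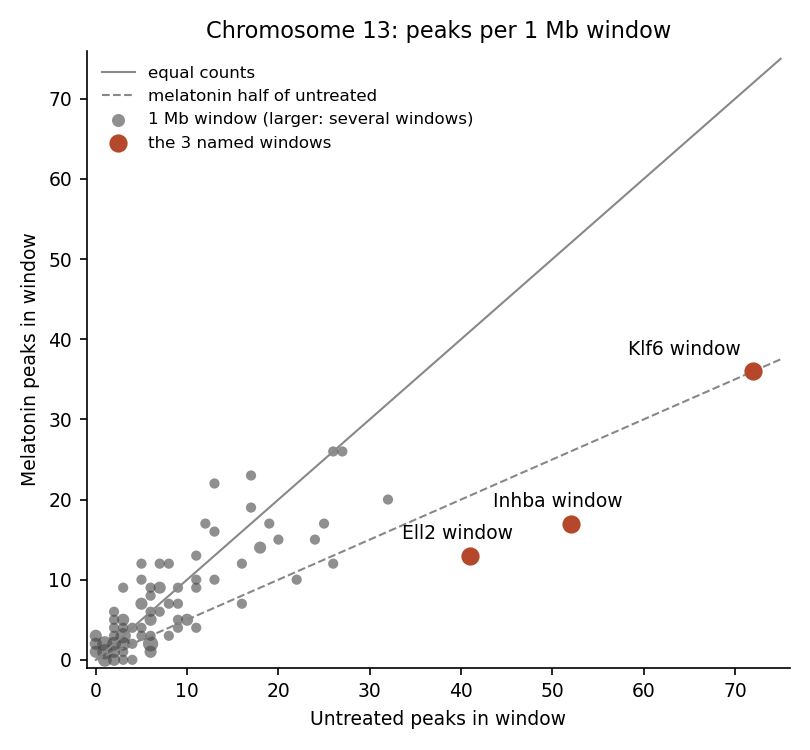
Peaks per 1 Mb window of chromosome 13, with the melatonin count on the y axis and the untreated count on the x axis, for the 101 windows with a peak. The 3 named windows (36 and 72, 17 and 52, 13 and 41 melatonin and untreated peaks) lie far to the right on or under the dashed line, at which the melatonin count is 0.5 of the untreated count.

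The lower melatonin count remained without the 3 windows, but was smaller. Together they held 66 melatonin and 165 untreated peaks, a ratio of 0.4 (0.296 to 0.535), and 99 of the chromosome's deficit of 183 peaks (54.1%). The rest of the chromosome held 628 and 712 peaks, a ratio of 0.882 (0.791 to 0.983). On all other chromosomes it was 0.936. Leaving out any single one of the windows gave 0.817 (without the Klf6 window), 0.821 (without the Inhba window) and 0.815 (without the Ell2 window). Windows picked for a low ratio raise the ratio when they are left out. Leaving out the 3 windows with the highest ratio instead, at 41, 101 and 113 Mb, gave 0.762 (0.686 to 0.845), and leaving out both sets gave 0.85 (0.759 to 0.951).

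The deficit also reached the neighbouring windows. The 6 windows that flank the 3 held 53 melatonin and 84 untreated peaks, a ratio of 0.631 (0.439 to 0.9). At 4 to 5 Mb there were 12 peaks with melatonin and 26 without, at 15 to 16 Mb 4 and 11, and at 17 to 18 Mb 7 and 16. At 6 to 7 Mb the counts were close, at 26 and 27, and at 74 to 75 Mb and 76 to 77 Mb both libraries had at most 3. Without the 3 windows and their flanks, the chromosome held 575 and 628 peaks, a ratio of 0.916 (0.816 to 1.03).

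Leaving out the windows with the largest deficit raises a ratio by design, and it did so on other chromosomes too. When every chromosome was stripped of its own 3 windows with the largest deficit, which on chromosome 13 are the 3 named ones, the median ratio over the 20 chromosomes was 1.04, against 0.966 before. Chromosome 13, at 0.882, was then the third lowest, after chromosome 3 at 0.842 (0.754 to 0.941) and chromosome 5 at 0.875 (0.747 to 1.02). The deficit in the 3 windows of chromosome 13, 99 peaks, exceeded that of any other chromosome, the next being 59 peaks on chromosome 10. These ranks use the contrast by which the chromosome and its windows were picked, and nothing is read from them.

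**Figure D2:**
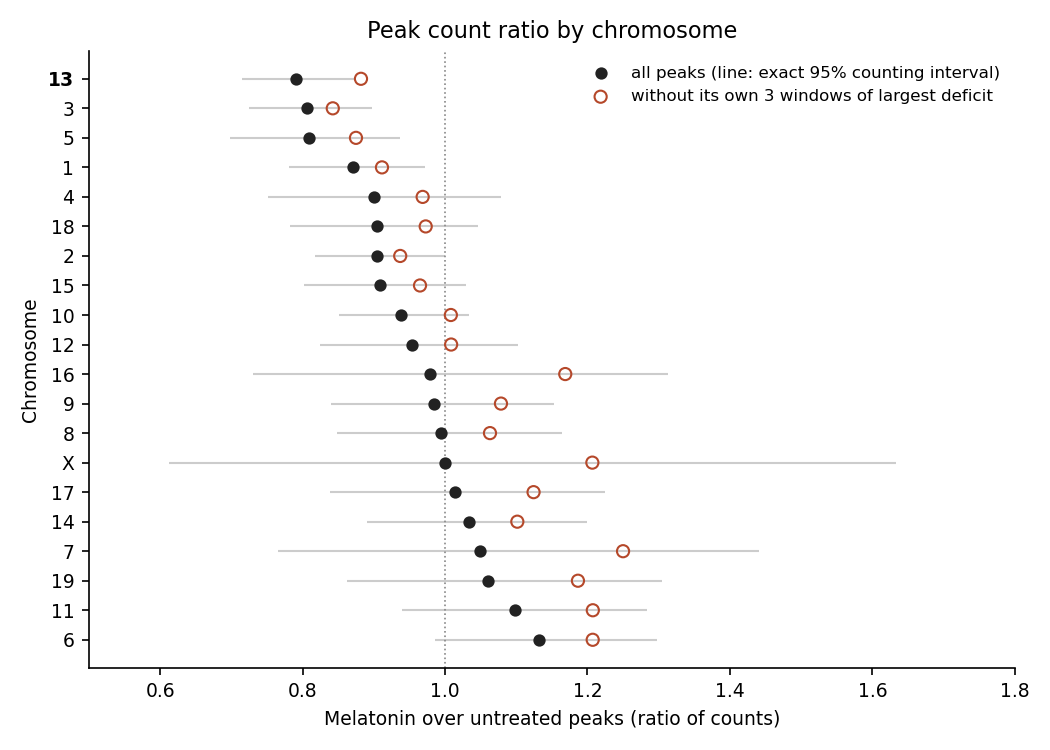
Ratio of melatonin to untreated peak counts for each chromosome, ordered from the lowest, with filled points for all peaks (lines are exact 95% counting intervals) and open points without each chromosome's own 3 windows of largest deficit. Chromosome 13 is lowest at 0.791 with all peaks and the third lowest at 0.882 without the windows.

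Along the chromosome, 101 windows held a peak. Of these, 52 (51.5%) had fewer melatonin than untreated peaks, where the share over all chromosomes was 43.7%, and 34 (33.7%) had more, where the share was 40%. Counts were equal in 15. Among the 26 windows with 20 or more peaks in both libraries summed, 6 had a melatonin count at most 0.5 of the untreated count, where the share over all chromosomes was 13.6%. Besides the 3 named windows these were the windows from 4, 17 and 27 Mb, and the last of them, with 10 melatonin and 22 untreated peaks, holds much of the prolactin cluster. None of the 26 windows had an untreated count at most 0.5 of the melatonin count, where the share over all chromosomes was 2.72%. These counts use the contrast by which the chromosome was picked, and nothing is read from them.

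The 2 libraries followed the same regional outline. Across the 118 windows from 3 Mb onward, the counts of the libraries gave Pearson's r = 0.83 and Spearman's rho = 0.86, and without the 3 windows r = 0.86 and rho = 0.85, given as a description since windows share libraries and neighbours. In blocks of 10 Mb, peaks were densest in the first, with 97 melatonin and 142 untreated peaks, at 30 to 40 Mb, with 99 and 93, at 90 to 100 Mb, with 76 and 98, and at 100 to 110 Mb, with 92 and 84. Apart from the partial block at the chromosome end, which held no peak, the sparsest was 60 to 70 Mb, with 21 and 13. The melatonin count was the higher in each of the 4 blocks from 30 to 70 Mb and at 100 to 110 Mb. The block ratio was lowest at 10 to 20 Mb, where 41 melatonin and 97 untreated peaks gave 0.423, and at 70 to 80 Mb, where 29 and 61 gave 0.475. Both of these blocks hold a named window.

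Windows with 10 or more protein-coding genes held the fewest peaks per window, 3.32 with melatonin and 3.61 without. Those with 0 to 3 genes held 6.59 and 9.31, and those with 4 to 9 genes 6.96 and 8.38. The 39 windows with 0 to 3 protein-coding genes had 257 melatonin and 363 untreated peaks, a ratio of 0.708. The 48 windows with 4 to 9 genes had 334 and 402, a ratio of 0.831, and the 31 windows with 10 or more had 103 and 112, a ratio of 0.92. Without the 3 named windows the ratios were 0.854 for 0 to 3 genes, 0.889 for 4 to 9 genes and 0.92 for 10 or more. Across windows, Spearman's rho between gene number and peak count was only -0.07 with melatonin and -0.13 without. The Klf6 window has 1 such gene, the Inhba window 2 and the Ell2 window 5.

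Peaks tended to lie in runs, and the libraries differed more in peaks per run than in runs. With peaks joined where they lay within 50 kb, the melatonin list formed 319 runs and the untreated list 313. A run held 2.18 peaks on average with melatonin and 2.8 without, and a denser list merges more of its peaks by construction. In the 3 windows, the 66 melatonin peaks formed 22 runs and the 165 untreated peaks formed 8. The untreated run with the most peaks on the chromosome, 47 at chr13:5031606-5557602, lay in the Klf6 window. The melatonin run with the most peaks, 25 at chr13:5901848-6289646, began in the Klf6 window and continued past it. The direction of this comparison changed with the joining distance, and at 10 kb there were 559 melatonin and 643 untreated runs.

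In the Klf6 window the peaks filled a stretch with no other protein-coding gene. Klf6, a zinc finger transcription factor expressed in many tissues (chr13:5861489-5870393), had no peak in its body or 2 kb flanks in either library, and the nearest lay 13 kb away with melatonin and 3.41 kb away without. No peak midpoint of either library fell in a protein-coding gene, and 5 melatonin and 15 untreated peaks fell in genes of other kinds. The lncRNA gene Gm46401 (chr13:5915706-6013963) overlapped 4 melatonin and 9 untreated peaks of the window. The short lncRNA gene 1700016G22Rik, which ends just before Klf6, overlapped 2 untreated peaks and no melatonin peak. In bins of 100 kb, the libraries were furthest apart at chr13:5200001-5300000, with 4 melatonin and 12 untreated peaks, and at chr13:5800001-5900000 around Klf6 itself, with 1 and 9. They were level at chr13:5700001-5800000, with 6 each. The melatonin count was the higher at chr13:5500001-5600000, with 7 and 6, and at chr13:5600001-5700000, with 2 and 1.

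The strongest peaks of the window differed between the libraries. With melatonin it was chr13:5048002-5050114, with 31.4 tags per 10000000 and a fold of 8.6, and an untreated peak at chr13:5049077-5050077 lay inside it with 13.3 tags and a fold of 7.48. Without melatonin it was chr13:5103789-5106929, with 45.1 tags and a fold of 4.01, the third strongest untreated peak of the chromosome, and the nearest melatonin peak lay 0.844 kb away. Tags here are summed over the whole region, so the wider peak gains from its width.

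In the window at 16 to 17 Mb most peaks lay outside its 2 protein-coding genes. Inhba, which encodes the subunit of activin A (chr13:16004256-16031609), had no peak in its body or 2 kb flanks, and the nearest lay 9.33 kb away with melatonin and 16.7 kb away without. Of the window's peaks, 3 with melatonin and 6 without overlapped Sugct, a mitochondrial coenzyme A transferase gene whose body runs on into the next window. The lncRNA gene Gm31711 (chr13:16151561-16261349) overlapped 5 melatonin and 7 untreated peaks. At chr13:16500001-16600000 there were 1 melatonin and 8 untreated peaks and at chr13:16600001-16700000 there were 0 and 6, while at chr13:16200001-16300000 each library had 4. By summed tags, the strongest melatonin peak of the whole chromosome was chr13:16964482-16967088 in Sugct, with 33.9 tags and a fold of 4.17. It was also the widest melatonin peak of the chromosome, at 2606 bp, and the nearest untreated peak was 11.2 kb away.

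In the window at 75 to 76 Mb the peaks gathered between Pcsk1 and Ell2. Pcsk1, a prohormone convertase gene (chr13:75089420-75134861), was 89.1 kb from the nearest melatonin peak and 124 kb from the nearest untreated peak. At chr13:75300001-75400000 there were 4 melatonin and 15 untreated peaks. A run of 8 untreated peaks less than 10 kb apart, chr13:75373019-75408449, began in this bin. At chr13:75600001-75700000 there were 2 and 9. There the lncRNA gene 1700037F03Rik, directly beside Ell2, overlapped 1 melatonin and 7 untreated peaks. Ell2, a transcription elongation factor gene (chr13:75707484-75772361), had an untreated peak in its flank with a fold of 5.41 and no melatonin peak. Glrx, which encodes glutaredoxin, had a melatonin peak in its flank with a fold of 6.96 and no untreated peak, and Spata9 had a melatonin peak with a fold of 4.35.

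**Figure D3:**
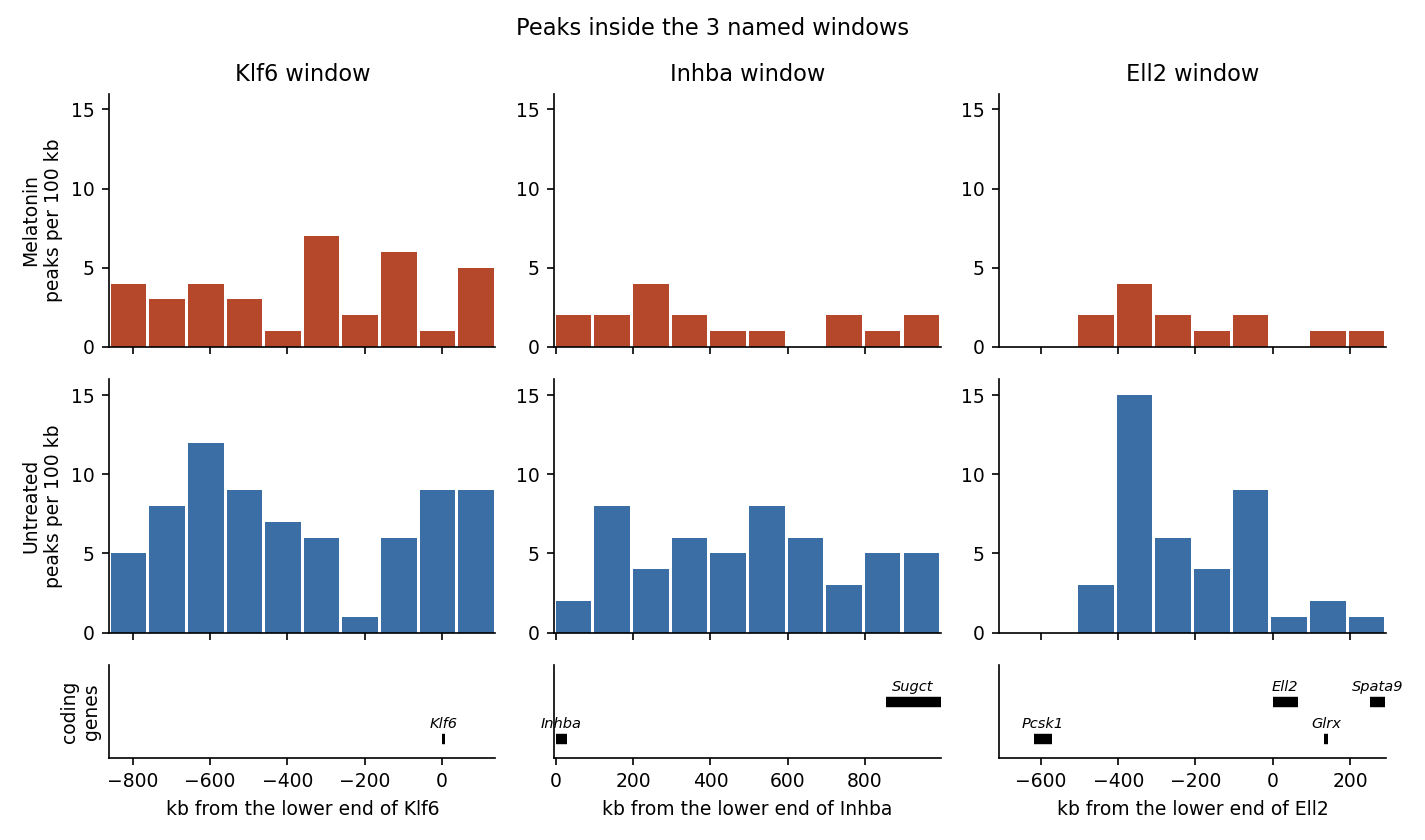
Peaks per 100 kb inside the 3 windows, with melatonin in the upper row, untreated in the middle row and the protein-coding genes named in the text as black bars below, on an x axis in kb from the lower-coordinate end of Klf6, Inhba or Ell2. The highest melatonin bars hold 7, 4 and 4 peaks, and the highest untreated bars hold 12, 8 and 15.

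Where melatonin peaks occurred in the 3 windows, many lay on or near an untreated peak. Overlap with an untreated peak was found for 18 of the 66 melatonin peaks there (27.3%, Wilson interval 18 to 39), and the same 18 overlaps made up 10.9% (7.01 to 16.6) of the 165 untreated peaks. On the rest of the chromosome the shares were 6.37% and 5.62%, on the whole chromosome 8.36% (58 peaks) and 6.61% (58 peaks), and over all chromosomes 6.12% and 5.6%. The Klf6 window held 11 of the overlaps, the Ell2 window 5 and the Inhba window 2. The median distance from a melatonin peak to the nearest untreated peak was 2.27 kb in the 3 windows and 18.9 kb elsewhere on the chromosome. From an untreated peak to the nearest melatonin peak it was 9.87 kb and 19.8 kb. Denser windows bring peaks closer and raise overlap, and density was not matched.

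Of the 58 overlapping pairs, 7 lay in or beside protein-coding genes with an established symbol. By midpoint, 6 of the 58 melatonin peaks and 6 of the 58 untreated peaks in pairs were in a protein-coding gene (10.3% each), beside 25.6% and 22.1% of all melatonin and untreated peaks of the chromosome. In each library 9 more were in genes of other kinds (15.5%), beside 14.1% and 15.6% of all peaks. Of the 7 pairs at such genes, the first 5 by mean percentile of the fold were at Serpinb1c, a serine protease inhibitor gene (fold 7.83 with melatonin and 4.85 without), Atg10, an autophagy enzyme gene (5.07 and 6.41), Prl3d1, a placental lactogen gene (5.22 and 5.48), Chrm3, the muscarinic M3 receptor gene (10.7 and 4.36), and Zfp366, a zinc finger gene (4.93 and 5.36). In 36 of the 58 pairs the untreated peak held more tags per 10000000. The same count over all chromosomes was not computed, and wider peaks hold more tags. Over all chromosomes, untreated peaks held 13.6 such tags per kb and melatonin peaks 13.3. The pair with the highest mean percentile of all was the one in the Klf6 window described above, outside any protein-coding gene.

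Peak strength differed little between chromosome 13 and all others. The median of the authors' fold was 5.12 with melatonin and 4.98 without on chromosome 13, and 5.11 and 4.87 on all other chromosomes. In the 3 windows it was 5.28 and 5.02. Input tags within peaks had a median of 3 per kb with melatonin and 3.5 without, on chromosome 13 as on all others. Peaks wider than the 1000 bp minimum made up 22.8% and 24.2% on chromosome 13, against 20.6% and 19.9% elsewhere. In the 3 windows they made up 27.3% with melatonin and 36.4% without. Every peak had to pass a tag and a fold threshold, so peak strength could vary only above these.

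Thresholds differed slightly between the libraries, and the ratio depended on them. The melatonin library had 14180076.5 tags and needed 18 in a 1000 bp window, or 12.7 per 10000000. The untreated library had 13198427.5 tags and needed 17, or 12.9 per 10000000. Such a window was expected to hold 7.09 tags with melatonin and 6.6 without. Peaks held only 1.12% of all melatonin and 1.24% of all untreated tags, so the counts rest on a small share of the tags. Against input, melatonin ChIP tags were scaled by 0.87 to the depth of a shallower input, and untreated ChIP tags were not scaled. With the fold threshold raised to 6, chromosome 13 held 214 melatonin and 220 untreated peaks, a ratio of 0.973, while all other chromosomes gave 1.17. Without the 3 windows it then held 188 and 178, a ratio of 1.06 (0.856 to 1.3), so the lower melatonin count did not remain there. Among peaks whose best 1000 bp window held at least 14 tags per 10000000, a choice made after seeing the data, the ratio was 0.585 on chromosome 13, 0.649 without the 3 windows and 0.718 elsewhere. With equally long lists it was 0.842, 0.943 (0.844 to 1.05) and 1.02. Over 7 such settings, the ratio of chromosome 13 was 0.797 to 0.849 times that of all other chromosomes, and 0.902 to 0.948 times it without the 3 windows. The part of depth and scaling in these counts was not tested.

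**Figure D4:**
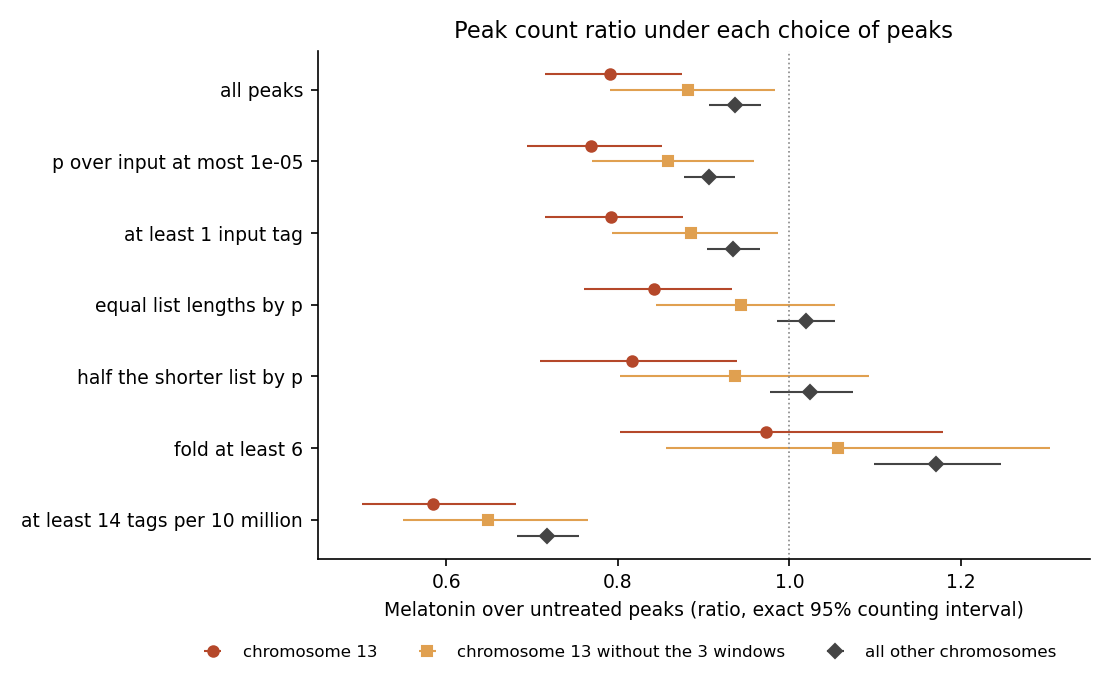
Melatonin over untreated peak counts under 7 choices of which peaks to count, for chromosome 13, for chromosome 13 without the 3 windows and for all other chromosomes, with exact 95% counting intervals. The ratio of chromosome 13 runs from 0.585 to 0.973, and in each setting it lies to the left of the other 2.

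Peaks of chromosome 13 lay in protein-coding genes less often than peaks elsewhere. Midpoints fell in such a gene for 178 of the melatonin peaks (25.6%, Wilson interval 22.5 to 29) and 194 of the untreated peaks (22.1%, 19.5 to 25), where the shares over all chromosomes were 29.1% and 27.8%. Outside the 3 windows they were 27.7% and 26.5%. To the nearest gene of this kind the median distance was 52.8 kb for melatonin peaks and 65.9 kb for untreated peaks, against 24 kb and 31.8 kb on all other chromosomes. In the 3 windows it was 223 kb and 215 kb.

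The chromosome held 9.01% of all melatonin and 10.5% of all untreated peaks. Melatonin peaks touched the body or 2 kb flanks of 80 of its 829 protein-coding genes (9.65%), where the share over all chromosomes was 5.93%, and untreated peaks those of 87 (10.5%), where the share was 5.71%. At a fold of at least 6 the order turned, with 45 genes for melatonin and 33 for untreated peaks. With all peaks, both libraries marked 47, melatonin alone 33 and untreated alone 40. The same split over all chromosomes was not computed, so nothing is read from it. The median length was 189 kb for genes in both, 49.7 kb for melatonin alone, 59 kb for untreated alone and 15.9 kb for all. Nsd1 itself (chr13:55209782-55318325) had no peak, with the nearest 453 kb away with melatonin and 1222 kb away without.

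Genes with the most peaks were long ones and did not share a direction. Pde4d, a cyclic AMP phosphodiesterase gene of 1302 kb, had 15 peaks with melatonin and 17 without. Sugct (837 kb) had 10 and 20, and 6 of the 20 lay in the named window. Cdkal1, a tRNA modification enzyme gene, had 8 and 10, and Dip2c had 6 and 10. Atg10 had 9 and 6, and Chrm3 had 7 and 3. Xrcc4, which acts in joining broken DNA ends, had 5 and 6, and Gmds, an enzyme gene of fucose synthesis, had 5 each. No melatonin peak overlapped an untreated one in Pde4d, Sugct, Xrcc4 or Gmds. Overlap was rare in general, at 8.36% of melatonin and 6.61% of untreated peaks of the chromosome. Over all chromosomes the shares were 6.12% and 5.6%, so nothing is read from its absence in these genes.

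**Figure D5:**
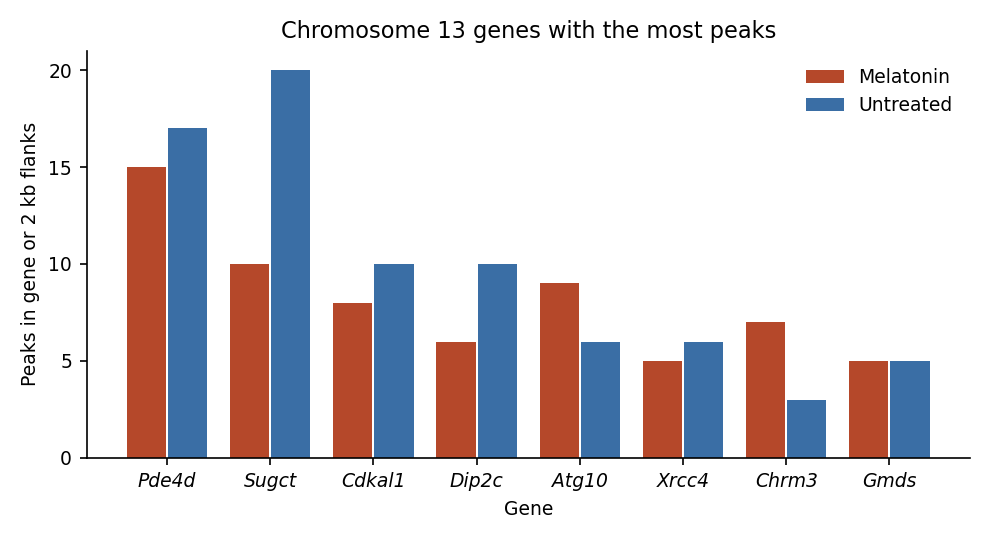
Number of peaks in the body or 2 kb flanks of the 8 chromosome 13 genes with the most peaks, melatonin at left and untreated at right for each gene. Sugct shows the widest gap, with 10 and 20, while Atg10 (9 and 6) and Chrm3 (7 and 3) have more with melatonin.

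High folds rested on little input. Among genes with an established symbol, predicted and Rik genes left out, the melatonin peaks of highest fold that no untreated peak overlapped lay at Mblac2 (33.9, chr13:81717460-81718460), Itga2, a collagen-binding integrin gene (29.6), Fars2, a mitochondrial tRNA synthetase gene (21.5), Aopep, an aminopeptidase gene (16.1), and Nedd9, an adhesion scaffold gene (15.2). The untreated ones that no melatonin peak overlapped lay at Dip2c (22.4), Serpinb1c (21.8), Fancc, a DNA crosslink repair gene (21.8, just outside the gene), Sugct (15.8) and Rgs7bp, a regulator of G protein signalling (14.1). All of these peaks had at most 1.5 input tags. The Fars2 peak, chr13:36179179-36181104, also carried 26.1 ChIP tags per 10000000 over 1925 bp.

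Of 18 bone and osteoblast genes, Ror2, a receptor for noncanonical Wnt signals, had 2 melatonin peaks (best fold 9.28) and no untreated peak. Mef2c, a transcription factor of muscle and bone cells, had 2 untreated peaks (best fold 4.84) and no melatonin peak. The others, Bmp6, Msx2, Inhba, Gli3 and Ptch1 among them, had none in either library. Mef2c was also the only marked gene of 18 developmental transcription factor genes. Set beside 9.65% and 10.5% of all genes of the chromosome, the bone list had 5.56% in each library, and its median gene length was 28.6 kb.

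Of 16 matrix and adhesion genes, 4 had a peak in each library (25%), beside 9.65% with melatonin and 10.5% without for all genes of the chromosome, and the median length of this list was 79.5 kb. Itga2 had 2 melatonin and 3 untreated peaks, and its neighbour Itga1, encoding another collagen receptor subunit, had 1 each. Edil3, a secreted integrin ligand gene, had 1 each, with folds of 6.26 and 4.84. Ecm2 had a peak with melatonin alone (fold 5.91), and Adamts16, a metalloprotease gene, without it alone (fold 6.57). The list made for chromatin enzymes held 6 genes, not all of which encode enzymes: Nsd1, Jarid2, Kdm1b, Mier3, Zfp367 and Fbxl21. Jarid2, a partner of the Polycomb complex, had 1 melatonin and 3 untreated peaks, a share of 16.7% of the list in each library. The other 5, Nsd1 included, had none. The histone list matched 9 of its 21 symbols, linker histone genes (H1f1 to H1f5) and core histone genes (H2ac4, H2bc4, H3c1 and H4c1), and none had a peak. Their median length is 0.745 kb. Of 15 cell cycle and DNA repair genes, Fancc (3 and 2 peaks) and Xrcc4 were marked in both libraries (13.3%). Of 13 housekeeping genes, Ndufaf2, a respiratory complex assembly factor gene, had 2 peaks in each (7.69%). With so few genes per list, none of these shares is read as particular to a list.

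Among 19 neuron and immune genes, melatonin peaks marked 2 (10.5%) and untreated peaks marked 4 (21.1%), beside 9.65% and 10.5% of all genes of the chromosome. F13a1, a coagulation factor gene expressed in macrophages, had 6 melatonin and 4 untreated peaks, and Ly86, which encodes a partner of the CD180 receptor on B cells and myeloid cells, had 2 and 1. Cd180 itself had 2 untreated peaks and Gzmk, a granzyme gene of cytotoxic lymphocytes, had 1, with no melatonin peak at either. The others had none in either library, among them the neuron genes Ntrk2, Homer1, Pcsk1, Htr1a, Nrn1 and Sncb. The immune genes Irf4, Gzma, Il9, Cxcl14, Il31ra, Naip1, Naip2 and Naip5 also had none. Whether other cells were present in either culture was not tested.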

How the data were processed

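Per the file headers, both peak lists were made with HOMER (findPeaks, histone style), with 1 ChIP library called against its own input and no pooling. The name of each deposited list carries the code of its input library and its header that of its ChIP library, and name, header and labels give the same condition. Windows of 1000 bp needed a Poisson p of 0.001, a fold over input of 4 and a p over input of 1e-04, per the file headers. The submitters' processing notes name BWA 0.7.13, Picard 1.126 and MACS2 2.1.0 without their roles. For HOMER the version is not given in these sources. The normalized tag count is a signal in tags per 10000000, per the file headers, and the ChIP and input tag columns are deposited as a signal too, scaled to the shallower library of each pair. The findPeaks score (the tags of the best window), the fold over input (a ratio), the unadjusted p-value and the region width are the authors' values. The clonal ratio was deposited too and not used. These values filter or order peaks inside their own list. Where folds, tags or widths of the 2 libraries stand side by side, they are a description without a test.

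The notes name mm39, but peaks reach 159805034 on chromosome 3 and 145328623 on chromosome 7, past where both chromosomes end in mm39. Shifting chromosome 13 midpoints by up to 200 kb in either direction raised their share in GRCm38.p6 protein-coding genes in every case, so coordinates were read as GRCm38. Promoter stretches came from RefSeq. No whole genome was given, so repeats, mappability and assembly gaps were not considered.

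Peaks were placed in 1 Mb windows by their midpoints, and overlap meant 1 bp or more. Ratios have exact binomial and shares Wilson 95% intervals (scipy 1.17.1). With 1 library per condition, no p-value between conditions was computed. Peak counting, overlap and ratios were tested on simulated peaks. Genes are named by rule: all in the 3 windows, the 8 with the most peaks, the 5 highest folds per list, the 5 highest shared ones, Nsd1 and list members with a peak. Of the protein-coding genes in the 3 windows, 1 is not reported here. The members, windows, gene lists and alternatives were chosen with earlier results of these data known.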

Additional observations from a re-analysis of the deposited data

How the results depend on the processing

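The melatonin count of chromosome 13 stayed under the untreated count in all settings run. At a fold of at least 6 the ratio moved to 0.973, and at 14 or more tags per 10000000 to 0.585. Without the 3 windows, the ratio of 0.882 turned to 1.06 at a fold of at least 6, moved to 0.649 at 14 or more tags and was 0.762 when the 3 windows of highest ratio were left out in their place. The share of windows with fewer melatonin peaks, 51.5%, was 63.8% in windows of 2 Mb, 66.7% in windows of 5 Mb, 43.8% at a fold of at least 6 and 46.5% with equally long lists. The share of overlapping peaks was 5.04% of melatonin and 3.99% of untreated peaks when 50% of the shorter peak had to overlap, 12% and 9.81% within 1 kb, 40.6% and 37.5% within 10 kb, and 1.4% and 1.36% with a fold threshold of 6 in both lists. At that fold the order of the gene counts turned, with 45 genes marked by a melatonin peak and 33 by an untreated peak. The ratio of runs of peaks, 1.02 at a joining distance of 50 kb, was 0.869 at 10 kb, 0.966 at 100 kb and 0.974 without the 3 windows. A list cut to a fold of at least 6 cannot mark more genes than the full list, so the lower gene counts follow by construction. The cause of the other shifts, the lower share of overlapping peaks included, was not tested. The 14-tag minimum, the list cut to 3849 peaks, the minimum of 1 input tag, leaving out both sets of windows and the runs without the 3 windows were chosen after seeing the data. No paired analysis was possible because each condition had 1 library. A region needed 18 tags with melatonin and 17 without to be called, so regions without a call may still carry the mark.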

Other observations

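Tandem gene families of chromosome 13 were grouped by symbol after the data were seen, and their small counts stand beside 9.65% of all genes of the chromosome with a melatonin peak and 10.5% with an untreated peak. Of 25 prolactin family genes, hormone genes expressed mainly in the placenta, melatonin peaks marked 5 and untreated peaks 8, with 5 and 10 peaks in all. Prl3d1 and Prl3b1 were marked in both libraries. Prl6a1, Prl7a2 and Prl2c1 were marked with melatonin alone, and Prl8a2, Prl7b1, Prl7a1, Prl7d1, Prl7c1 and Prl2a1 without it alone. Of 16 clade B serpin genes, which encode intracellular protease inhibitors, melatonin peaks marked 5 and untreated peaks 3, and Serpinb1c carried 3 and 4 of them. None of 36 vomeronasal receptor genes had a peak in either library. Of 37 zinc finger genes with a Zfp symbol, a group not limited to tandem copies, 1 was marked in each library, and in both it was Zfp366. Median gene lengths were 7.5 kb for the prolactin family, 11.3 kb for the serpins, 0.927 kb for the vomeronasal receptors and 20.2 kb for the zinc finger genes. Reads in near-identical copies can be placed in the wrong copy or dropped, so counts for single members are uncertain.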
